A study of Mus musculus with 20 samples.

Results

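The genes described here code for nuclear subunits of the mitochondrial respiratory chain and of ATP synthase, with the complex I assembly factors that share the Nduf name. They were chosen by name: every gene with a single symbol in the platform annotation that begins with Ndufa, Ndufb, Ndufc, Ndufs or Ndufv, is Sdha, Sdhb, Sdhc or Sdhd, or begins with Uqcr, with Cox and a digit from 4 to 8, or with Atp5. This gave 90 of the 18193 genes on the array, read by 179 probe sets. By complex there were 42 genes for complex I, 4 for complex II, 8 for complex III, 19 for complex IV and 17 for complex V (ATP synthase). Ndufa4 and Ndufa4l2 were placed with complex IV, where their proteins are now assigned, and the 8 Ndufaf assembly factors with complex I.

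RNA of 10 blood cell types from C57Bl/6 mice, CD45.1 by the design text, had been measured on Affymetrix Mouse430_2 arrays, with 2 arrays for each type. The types were activated CD4 and activated CD8 T cells, which the labels give as activated by LPS treatment, naive CD4 and naive CD8 T cells, NK cells, B cells, monocytes, granulocytes, nucleated erythrocytes and long-term hematopoietic stem cells (LT-HSC). The labels give every array as female, aged 12 to 14 weeks, with 4 samples pooled. Nothing names the animals behind each pool, and p-values cover only the spread between such arrays, which may be technical. RNA from 25000 to 50000 sorted cells was amplified in successive rounds of in vitro transcription.

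The respiratory chain sits in the inner mitochondrial membrane. Complexes I and II pass electrons from NADH and succinate to ubiquinone, complex III passes them to cytochrome c and complex IV to oxygen. Complexes I, III and IV pump protons, and ATP synthase uses the returning protons to make ATP. Mitochondrial DNA codes for the innermost subunits of each complex but complex II, and the nucleus codes for all others. T cells that are stimulated to divide are known to enlarge their mitochondria, mature red cells lose them, and stem cells of the marrow are described as relying little on respiration.

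Some features of the arrays touch all results. The Y-linked genes Eif2s3y and Kdm5d were high (7.71 to 12.84) in both arrays of each activated T cell group and in the naive CD4 and naive CD8 arrays numbered 1, against 2.56 to 3.45 in all others, which goes against the label female. An array of naive CD8 cells has CD48+ in its title and CD8+ in its source name, and its Cd8a value was 13.44. The 5 prime control probe set of Gapdh read 7.42 to 8.81 in activated T cells and 3.89 to 4.45 in naive T cells. Its 3 prime probe set was higher there too, at 14.66 to 15.08 against 13.07 to 13.58. The 5 prime probe set of beta-actin read 3.94 to 5.55 in activated and 3.57 to 3.89 in naive T cells. In granulocytes the 5 prime Gapdh values were 8.26 and 8.23. Granulocyte markers were high outside granulocytes. The 5 listed genes, summed, reached 17.3 to 17.4 in monocytes and 15.4 to 16.7 in erythrocytes, against 17.8 to 18.1 in granulocytes. Their means exceeded 8 for 3 of 5 in monocytes (Camp and Elane did not) and for 4 of 5 in erythrocytes (Elane did not), and naive CD4 array 2 reached a sum of 11.7. Of the 3 monocyte markers with a probe set, Csf1r was highest in monocytes (13.95 and 13.71), but read 12.59 and 12.89 in granulocytes. Ccr2 was highest in NK cells and Fcgr1 stayed low throughout (3.08 in both monocyte arrays). Cd4 had only low values, 3.94 and 4.35 in activated CD4 cells. What part these features had in the results below was not tested.

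All values are log2 values, in which a difference of 1 is 2-fold. They compare cell types for 1 probe set, never 1 gene with another. A gene was tested when at least 2 arrays exceeded 5, and it was called when the adjusted p of limma was under 0.05 and the difference at least 1 in size. Of the 90 members 81 were tested, among 9810 genes in all. Among them 2 passed only through the group where they are high, Ndufaf6 through the activated T cell arrays and Cox6b2 through the erythrocyte arrays. Their calls there follow from the filter, so these are counted below but given as values with no test. The 9 that were not tested were the complex I genes Ndufb1 and Ndufb4 and 7 alternative forms of complex IV subunits (Cox4i2, Cox6a2, Cox7a1, Cox7b2, Cox8b, Cox8c and Ndufa4l2), several of which are known from muscle, lung or testis. Cox6a2 reached 4.24 in a naive CD8 array and Cox8c 3.39 in a granulocyte array. The other 7 did not exceed 3.10 in any array.

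Members varied over the blood types, but no more than genes in general. The range of their 10 type means had a median of 2.98, against 3.78 over all genes tested, and 78 of 81 were called in the test over all types, as were 93.8% of all genes. Activated CD8 T cells held the highest mean of 52 members (64.2%, against 17.0% of all genes) and activated CD4 T cells that of 15 (18.5%, against 6.68%). Monocytes held the lowest mean of 44 members (54.3%, against 20.6%) and LT-HSC that of 23 (28.4%, against 13.3%). In the array medians the 4 activated T cell arrays lay 0.87 to 1.21 above the gene means, and the monocyte arrays 0.71 and 1.30 below them. Over all genes tested the same medians were -0.13 to 0.06 in activated T cells and -0.45 and -0.41 in monocytes. In such bulk RNA, fewer cells that make a transcript and less transcript per cell cannot be told apart.

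**Figure D1:**
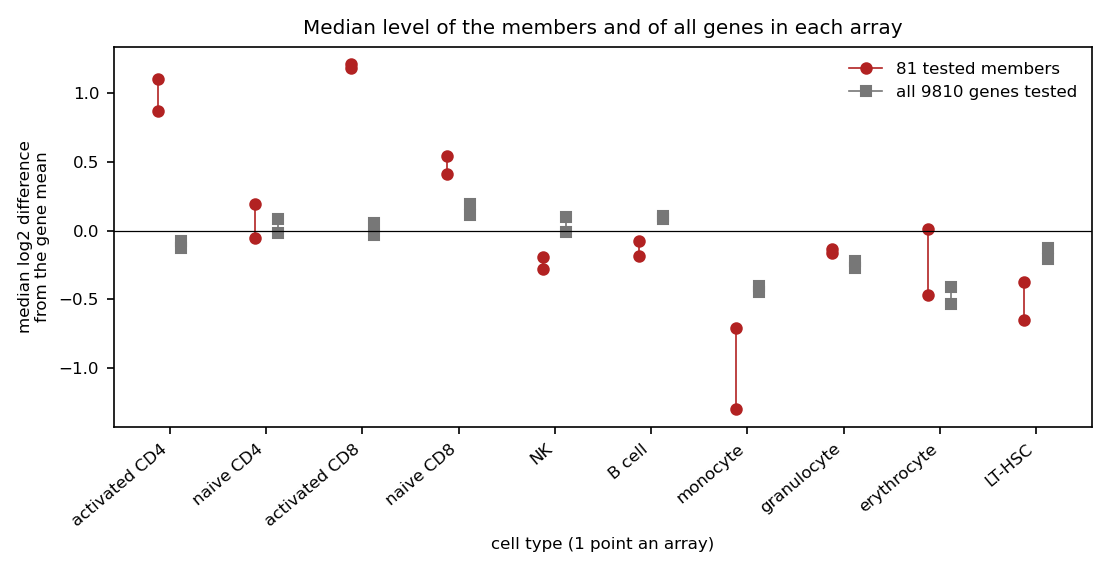
Median log2 difference from the gene mean over all 20 arrays, for the 81 tested members (red circles) and all 9810 genes tested (grey squares), 1 point an array and 2 arrays for each of 10 cell types. The activated T cell arrays lie highest for the members (0.87 to 1.21) and the monocyte arrays lowest (-0.71 and -1.30).

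The members with the widest range of type means were Atp5g1 (8.79), Uqcrq (6.82), Ndufa5 (6.18), Ndufaf4 (5.82) and Ndufaf5 (5.79). The narrowest were Sdha (0.55), Cox4i1 (1.11), Atp5pb (1.17), Cox6b1 (1.18) and Atp5a1 (1.32). Sdha, the flavoprotein that oxidises succinate in complex II, ranged from 12.29 to 13.00 over all 20 arrays with the probe set used. It was not called in the test over all types (adjusted p = 0.153), nor were Cox4i1 (0.0609) and Cox8a (0.0555), both of complex IV.

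**Figure D2:**
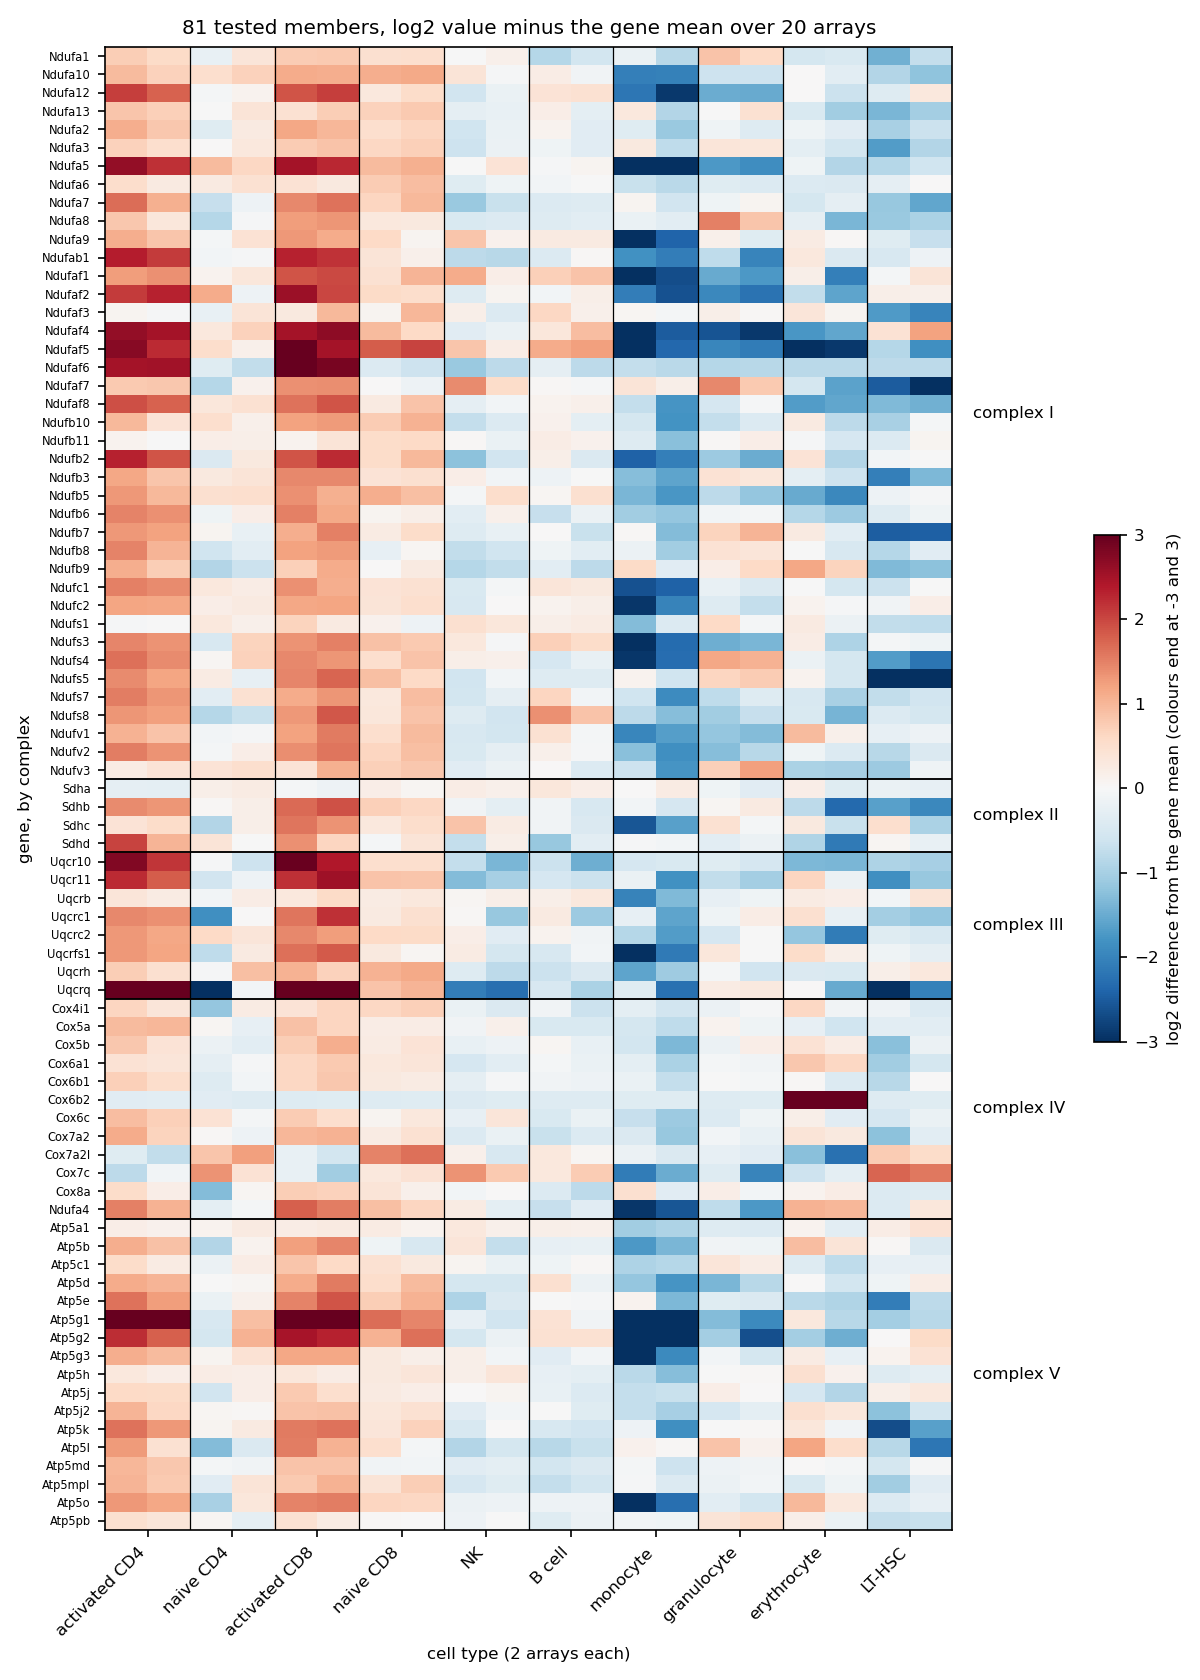
Log2 value of the 81 tested members minus the gene mean over 20 arrays, by complex (rows) and cell type (columns, 2 arrays each), with colours ending at -3 and 3. Red fills most rows in activated CD4 and CD8 T cells, blue most rows in monocytes, and Cox6b2 is red in erythrocytes only.

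The first comparison asked how the members differed between activated and naive CD4 T cells. Of the 81 tested, 41 (50.6%) were called higher in activated CD4 cells, where 14.9% of all genes were, and 2 were called lower, where 18.2% of all genes were. The members' median difference was 1.01, against 0.02 over all genes. Both activated arrays exceeded both naive arrays for 68 members (39.3% of all genes), and lay below both for 5 (35.1% of all genes). Leaving out an array leaves 1 array in its group and less precision, so that a call can be lost without a smaller difference. Fewer members were called higher when any 1 array of the 2 groups was left out. The same held without the naive arrays numbered 2, where every T cell array left carried the Y-linked signal. The naive CD4 arrays were over 2-fold apart for 11 of the 81 members (13.6%, against 13.5% of all genes). The 5 prime Gapdh signal was also higher in the activated arrays, at 7.42 and 7.81 against 3.89 and 4.38. So was the 3 prime Gapdh signal, at 14.79 and 14.90 against 13.07 and 13.41.

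In complex I 23 of 40 members were higher and none lower. They included 5 of 6 core subunits, which hold the flavin and iron-sulphur centres, and 13 of 26 accessory subunits. Ndufs8, an iron-sulphur core subunit, stood at 11.69 and 11.59 in activated CD4 cells and at 9.52 and 9.69 in naive CD4 cells. The groups were far apart, with a difference of 2.04 ± 0.33 (SE, adjusted p = 3.52e-04). Ndufv1, which binds NADH, differed by 1.00 ± 0.28 (adjusted p = 0.0132), just at the 2-fold limit, and lost its call without naive CD4 array 1 (0.98) or activated CD4 array 1 (0.91). Ndufs1, which takes electrons on from Ndufv1, read 10.36 and 10.37 in activated cells and 10.70 and 10.54 in naive cells. It was the core subunit not called (-0.26 ± 0.31, adjusted p = 0.589).

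Among the accessory subunits Ndufab1 differed most. It is the mitochondrial acyl carrier protein, which also serves fatty acid synthesis, and it read 12.59 and 12.35 in activated cells against 10.15 and 10.20 in naive cells. The difference was 2.29 ± 0.35 (adjusted p = 2.40e-04), with no overlap. The mean of its probe sets gave 0.85 and no call. Ndufb2, a small membrane arm subunit, differed by 2.17 ± 0.41 (adjusted p = 0.00109).

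Of the 8 Ndufaf assembly factors, which help build complex I and are absent from the finished enzyme, 5 were higher in activated CD4 cells: Ndufaf2, Ndufaf4, Ndufaf5, Ndufaf6 and Ndufaf8. Ndufaf6, a factor of the early steps, stood at 6.44 and 6.47 in activated CD4 arrays and at 3.59 and 3.21 in naive CD4 arrays. In the types other than the activated T cells its arrays lay between 2.84 and 3.69, near background. Ndufaf4, known to work with Ndufaf3 in the same assembly step, read 12.76 and 12.63 in activated cells against 10.45 and 10.83 in naive cells (2.06 ± 0.40, adjusted p = 0.00139). Ndufaf5, known in human cells to hydroxylate an arginine of a core subunit, differed by 2.15 ± 0.41 (adjusted p = 0.00111).

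In complex II 2 of 4 genes were higher, Sdhb and Sdhd, and Sdha was among the 38 members with no call. Sdhb, the iron-sulphur subunit, read 11.00 and 10.91 in activated CD4 cells against 9.62 and 9.75 in naive CD4 cells. The difference was 1.27 ± 0.37 (adjusted p = 0.0168). Sdhd, a membrane anchor, read 10.98 and 9.97 in activated cells against 9.33 and 8.94 in naive cells, an activated pair with a wide spread. Its difference was 1.34 ± 0.46 (adjusted p = 0.0363). Both calls were lost without either naive CD4 array or without activated CD4 array 1, where the differences were 1.21 to 1.33 for Sdhb and 0.83 to 1.53 for Sdhd; the Sdhb call was lost also without activated CD4 array 2 (1.31).

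Complex III had the highest median difference of the 5 complexes, 1.90, with 5 of 8 members higher. Uqcrq, a small subunit next to cytochrome b, stood at 9.73 and 9.95 in activated CD4 arrays against 2.94 and 5.94 in naive CD4 arrays. The naive arrays lay far apart and still far below the activated pair. The difference, 5.40 ± 0.83 (adjusted p = 2.46e-04), was the largest of all members. Uqcr10 (2.79 ± 0.33) and Uqcr11 (2.39 ± 0.44), small subunits beside the Rieske protein, followed within complex III. Uqcrc1, a core protein, read 10.55 and 10.50 in activated cells against 7.29 and 9.13 in naive cells (2.31 ± 0.62, adjusted p = 0.0099). Uqcrfs1, the Rieske iron-sulphur protein, differed by 1.49 ± 0.44 (adjusted p = 0.0166). Without naive CD4 array 1 neither was called, at 1.40 for Uqcrc1 and 0.98 for Uqcrfs1, nor without activated CD4 array 1 (2.29 and 1.43), nor was Uqcrfs1 without activated CD4 array 2 (1.55).

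The 12 tested members of complex IV had a median difference of 0.86, with 3 higher and 2 lower. This count depended on the probe set. In a fit over every probe set, others of Cox6b1 (1.47), Cox6a1 (1.28), Cox7a2 (1.185) and Cox5b (1.08) were called higher. Those used for these genes read 0.56 to 0.94 and had no call. The remaining Cox5b probe sets had no call either (-0.96 to 0.89). Cox5a, a matrix subunit, read 14.50 and 14.55 in activated CD4 cells against 13.61 and 13.32 in naive CD4 cells (1.06 ± 0.21, adjusted p = 0.00148). It had no call without naive CD4 array 2 (0.92). Ndufa4 differed by 1.45 ± 0.35 (adjusted p = 0.00503), and was not called without activated CD4 array 1 (1.22). Cox8a stood at the limit (1.00 ± 0.37, adjusted p = 0.0493) and had no call without naive CD4 array 1 (0.33), activated CD4 array 1 (0.83) or activated CD4 array 2 (1.18).

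The 2 members called lower both belong here. Cox7a2l, a factor that joins complexes III and IV into supercomplexes and of which C57BL/6 mice are known to carry a shortened form, read 11.36 and 10.97 in activated CD4 cells against 12.56 and 12.95 in naive CD4 cells. Its difference was -1.59 ± 0.32 (adjusted p = 0.00163), and its other 2 probe sets were lower too. Cox7c, a small membrane subunit, read 7.49 and 8.18 in activated cells against 9.60 and 8.70 in naive cells (-1.31 ± 0.49, adjusted p = 0.0482). That call was lost in 10 alternatives, which included leaving out naive CD4 array 1 (-0.86), activated CD4 array 1 (-0.97) or activated CD4 array 2 (-1.66).

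In complex V 8 of 17 members were higher and none lower. The ring of c subunits, which turns as protons pass, is made by 3 genes that give the same mature protein. Atp5g1 read 10.61 and 10.51 in activated CD4 arrays against 6.73 and 8.10 in naive CD4 arrays, a difference of 3.15 ± 0.44 (adjusted p = 1.24e-04). Atp5g2 differed by 1.75 ± 0.52 (adjusted p = 0.0175), without a call when naive CD4 array 1 (0.96) or activated CD4 array 1 (1.54) was left out. Another Atp5g2 probe set, with a mean level of 5.55, differed by 0.235 ± 0.41 in the fit over every probe set and had no call. Atp5g3 read 13.46 and 13.31 in activated cells against 12.46 and 12.79 in naive cells and had no call (0.76 ± 0.32, adjusted p = 0.0829). A test between the 3 genes was not made.

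The catalytic head of ATP synthase was read by its alpha and beta subunits. Atp5b, the beta subunit, read 13.13 and 12.92 in activated CD4 cells against 11.18 and 12.15 in naive CD4 cells (1.36 ± 0.37, adjusted p = 0.0116). Its call was lost without naive CD4 array 1 (0.88) and without activated CD4 array 1 (1.25). Atp5a1, the alpha subunit, stood at 14.40 and 14.32 in activated cells and at 14.30 and 14.46 in naive cells, so that the pairs overlapped. Another Atp5a1 probe set with a lower mean level, 11.9, gave a difference of 1.03 ± 0.41 (adjusted p = 0.0712, from a fit over every probe set).

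**Figure D3:**
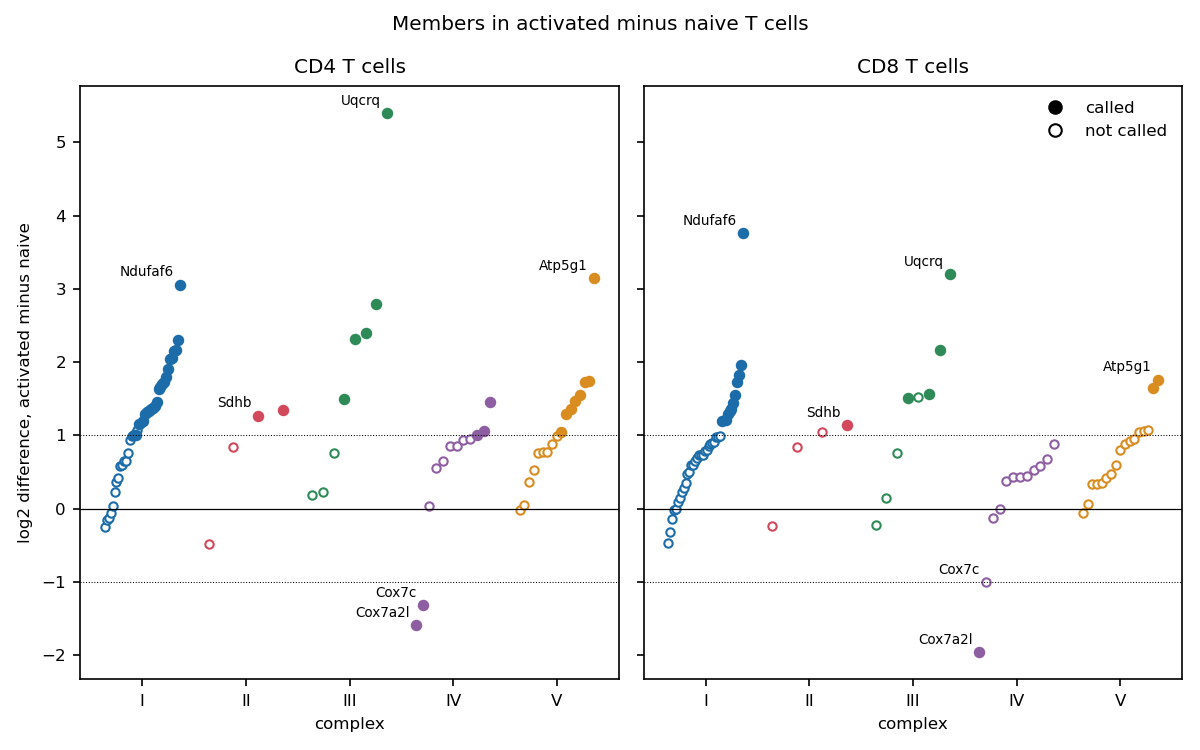
Log2 difference of the 81 tested members in activated minus naive CD4 T cells (left) and CD8 T cells (right), by complex and in rising order within each. Filled points were called, open points were not, and dotted lines mark a difference of 1 in size; 41 members were called higher and 2 lower in CD4 cells, 18 and 1 in CD8 cells.

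The same question was asked in CD8 T cells. There 18 of 81 members (22.2%) were called higher in activated CD8 cells, where 14.4% of all genes were, and 1 was called lower, where 15.7% were. The median difference was 0.74, against -0.02 over all genes, and both activated arrays exceeded both naive arrays for 65 members (32.8% of all genes) and lay below both for 6 (38.4%). Of the 18 members 17 had also been called higher in activated CD4 cells, and Ndufaf7 had not (1.17 ± 0.46 in CD4 cells, adjusted p = 0.0618). By complex the counts were 11 of 40 in complex I, 1 of 4 in complex II, 4 of 8 in complex III, none of 12 in complex IV and 2 of 17 in complex V. Without activated CD8 array 2 only 11 were called, and without the naive arrays numbered 2 there were 14.

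Ndufaf6 stood at 7.60 and 6.80 in activated CD8 cells against 3.54 and 3.34 in naive CD8 cells, again with only the activated arrays above background. Ndufaf2, Ndufaf4, Ndufaf7 and Ndufaf8 were higher as well, so that 5 of 8 assembly factors were called, with none of the 6 core subunits of complex I. The core differences were all positive, from 0.475 to 0.97. The largest was that of Ndufs8, whose other tested probe sets were all called higher in the fit over every probe set (1.105 to 1.99). In that fit others of Ndufb7 (1.12), Ndufc1 (1.23), Ndufc2 (1.45), Uqcrc2 (1.355), Atp5k (1.205) and Atp5a1 (1.38) were called higher too. Those used for these genes had no call, so the counts by complex depended on the probe set. Further probe sets of Ndufc2, Atp5k and Atp5a1 had no call, and no other one of complex IV was called higher. Uqcrq read 9.74 and 10.55 in activated cells against 6.86 and 7.04 in naive cells (3.19 ± 0.83, adjusted p = 0.00963). Without activated CD8 array 2 (2.79) or naive CD8 array 1 (3.10) it had no call. Uqcr10 differed by 2.17 ± 0.33 (adjusted p = 3.05e-04).

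Atp5b read 13.28 and 13.52 in activated CD8 cells against 11.93 and 11.57 in naive CD8 cells (1.65 ± 0.37, adjusted p = 0.00424). Atp5g1 differed by 1.76 ± 0.44 (adjusted p = 0.00782), and lost its call without naive CD8 array 2 or activated CD8 array 2 (1.66 in each case). Uqcrfs1, at 1.57 ± 0.44 (adjusted p = 0.0139), lost its call without the same arrays (1.45 and 1.48). Sdhb, at 1.14 ± 0.37 (adjusted p = 0.0319), lost it without any single array of the 4 (1.04 to 1.23). Cox7a2l was the member called lower, at 11.49 and 11.16 in activated CD8 cells against 13.20 and 13.37 in naive CD8 cells (-1.96 ± 0.32, adjusted p = 4.73e-04). It was thus lower in the activated cells of both lineages, while the median member was higher.

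The smaller count in CD8 cells was not shown to be a smaller effect. When the 2 activation differences were set against each other in limma, no member was called in either direction (0.326% of all genes were called larger in CD8 cells and 0.336% smaller). At an unadjusted p under 0.05 there were 3 members with a smaller difference in CD8 cells (2.38% of all genes) and none with a larger one (3.8% of all genes). The members' median was -0.30 for the CD8 minus the CD4 difference, against 0.01 over all genes. Naive CD8 arrays held higher member medians (0.41 and 0.55 above the gene means) than naive CD4 arrays (-0.06 and 0.19).

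The promoters of the members were read in the RefSeq table of build GRCm38.p6, which gives 250 bases before and 50 after a gene's start. It held promoters for 74 of the 90 members, 79 in all. Letters known for factors of mitochondrial genes were searched on both strands. The NRF1 letters, GCGCA and GCGC with any 1 base between them, stood in 22.8% of the members' promoters, against 10.6% of the promoters of all genes tested and 4.60% of the 32851 promoters in the table. Among members called higher in activated CD4 cells the share was 26.8% (11 of 41 promoters), and among tested members not called 19.4% (6 of 31). The YY1 letters AANATGGCG stood in 12.7% of the members' promoters and in 5.27% of those of genes tested.

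The ERR letters AAGGTCA were in 10.1% of the members' promoters, against 3.14% for genes tested. SP1 (GGGCGG) and ETS or GABPA (CCGGAAGT) letters were less frequent among members than among genes tested, at 45.6% against 61.8% and 6.33% against 8.43%. Median GC content was 59.0% in members and 60.7% in genes tested. These are descriptions of the letters, with no test, and a match is not a bound site. The 6 stretches of 100 bases shown carry the NRF1 letters, in capitals, before the start of members called higher in activated CD4 cells, and are those with the largest differences. In Uqcrc1, Ndufaf5 and Atp5o, also called higher, the letters begin 5, 16 and 9 bases after the start, so these are not among them. They read 5′ to 3′ on the gene's strand.
Ndufaf4, chr4:24897925-24898024, plus strand: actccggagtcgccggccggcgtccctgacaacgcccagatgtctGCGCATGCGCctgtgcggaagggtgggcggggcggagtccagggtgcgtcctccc
Atp5g2, chr15:102671048-102671147, minus strand: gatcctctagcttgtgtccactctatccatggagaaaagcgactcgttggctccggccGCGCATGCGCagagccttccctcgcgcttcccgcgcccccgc
Ndufa5, chr6:24527662-24527761, minus strand: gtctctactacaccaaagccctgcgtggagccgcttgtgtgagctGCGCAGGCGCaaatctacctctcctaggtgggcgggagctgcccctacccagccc
Sdhd, chr9:50603874-50603973, minus strand: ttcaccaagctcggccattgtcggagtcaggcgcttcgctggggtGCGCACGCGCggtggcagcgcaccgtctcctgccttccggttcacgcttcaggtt
Ndufs5, chr4:123718230-123718329, minus strand: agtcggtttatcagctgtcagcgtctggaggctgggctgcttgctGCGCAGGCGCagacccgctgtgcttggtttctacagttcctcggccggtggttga
Atp5k, chr5:108434400-108434499, minus strand: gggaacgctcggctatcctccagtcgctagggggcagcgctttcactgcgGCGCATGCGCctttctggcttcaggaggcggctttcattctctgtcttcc
The letters began 113, 42, 190, 79, 98 and 50 bases before the start in these 6 genes, in the order printed. Ndufa5 has a further start in the table, from which its letters lie 26 bases before, so that the stretch shown runs past that start.

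Genes that act on the respiratory chain but lie outside the naming rule were followed as lists, whose counts stand beside 14.9% of all genes higher and 18.2% lower in activated CD4 cells, and 14.4% higher and 15.7% lower in activated CD8 cells. Among the listed genes Sco2, Twnk and Tefm passed the filter only through activated T cell arrays. They stay among the tested genes of their lists, where a call of higher for them would follow from the filter. Of 33 tested assembly factors of other names, 13 were higher in activated CD4 cells and 12 in activated CD8 cells, with none lower. Uqcc2, needed to make cytochrome b of complex III, differed by 3.40 ± 0.29 in CD4 cells (adjusted p = 2.91e-06) and by 2.62 ± 0.29 in CD8 cells (adjusted p = 2.46e-05). Of 23 tested genes of mitochondrial protein import, 19 were higher in activated CD4 cells (median 1.71) and 15 in activated CD8 cells (median 1.62), again with none lower. Timm17a, a channel subunit of the inner membrane translocase, differed by 3.46 ± 0.38 in CD4 cells and by 3.06 ± 0.38 in CD8 cells.

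Among 20 tested electron carriers and partner proteins, 7 were higher and 1 lower in activated CD4 cells, and 7 higher and none lower in activated CD8 cells. Coq7, an enzyme of ubiquinone synthesis, rose most, by 3.95 ± 0.46 in CD4 cells and 4.05 ± 0.46 in CD8 cells. Of 15 citric acid cycle genes, 2 were higher in CD4 cells and 3 in CD8 cells, near the shares of all genes. Of 14 genes of mitochondrial DNA upkeep, 2 were higher and 2 lower in CD4 cells, and 5 were higher in CD8 cells. Top1mt, a mitochondrial topoisomerase, differed by 3.22 ± 0.54 and 4.00 ± 0.54 in CD4 and CD8 cells.

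Of 11 tested regulators, 4 were higher in activated CD4 cells and 2 lower, and 4 were higher and 1 lower in activated CD8 cells. Myc, a growth regulator, stood at a mean of 8.19 in activated against 3.79 in naive CD4 cells (4.41 ± 0.62, adjusted p = 1.24e-04) and differed by 4.63 ± 0.62 in CD8 cells. The transcript of Nrf1, the factor named for the letters above, was lower in activated cells, with a difference of -1.65 ± 0.33 in CD4 cells (adjusted p = 0.00147) and -1.41 ± 0.33 in CD8 cells (adjusted p = 0.00484). Gabpb1, a subunit of the factor GABP, was higher, with means of 8.43 in activated and 6.93 in naive CD4 cells (adjusted p = 0.0228) and a difference of 1.98 ± 0.47 in CD8 cells.

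The remaining comparisons set a type against the mean of the other 9 types, which share their arrays between comparisons. In monocytes 42 of 81 members (51.9%) were called lower, where 34.4% of all genes were, and none was called higher, where 18% of all genes were. The median difference of the members was -1.11, against -0.49 over all genes, so that part of the distance was common to the genes tested. With every array centred on its median over the genes tested, 26 members were lower (21.3% of all genes) and 1 higher. The monocyte arrays agreed least of all pairs, with a correlation of 0.945 over the genes tested, and 18 of 81 members (22.2%) were over 2-fold apart between them. The lower members were 24 of 40 in complex I, 1 of 4 in complex II, 5 of 8 in complex III, 3 of 12 in complex IV and 9 of 17 in complex V.

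Atp5g1 stood at 2.06 and 1.48 in monocytes, near background, against a mean of 7.80 in the other types. No array of another type lay below 5.28, and the difference was -6.03 ± 0.33 (adjusted p = 5.37e-09). With the probe sets used, all 3 c subunit genes were lower in monocytes. Atp5g2 differed by -3.71 ± 0.39 (adjusted p = 1.98e-06) and Atp5g3 by -2.74 ± 0.24 (adjusted p = 4.15e-07). Another Atp5g2 probe set, with a mean level of 5.55, differed by -0.48 ± 0.30 in the fit over every probe set and had no call. Ndufa5, an accessory subunit of the arm that reaches into the matrix, read 7.94 and 8.61 in monocytes against a mean of 12.46 elsewhere (-4.18 ± 0.22, adjusted p = 4.15e-09). Uqcrfs1, the Rieske protein, read 6.09 and 7.55 against 9.98 (-3.16 ± 0.33, adjusted p = 1.82e-06). Ndufa4 differed by -3.04 ± 0.26 (adjusted p = 3.02e-07).

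Of the assembly factors 5 of 8 were lower in monocytes. Ndufaf1, part of the complex that builds the membrane arm, read 3.49 and 4.70 in monocytes against 7.72 elsewhere (-3.62 ± 0.43, adjusted p = 6.35e-06). Ndufaf4 differed by -3.58 ± 0.30. The core subunits Ndufv1 (-2.01 ± 0.21), Ndufv2, Ndufs3, Ndufs7 and Ndufs8 were lower and Ndufs1 was not called. Sdhc, a membrane anchor, was the gene of complex II that was lower (-2.34 ± 0.37, adjusted p = 9.57e-05), while Sdha read 12.68 and 12.91 in monocytes against a mean of 12.65 in the others. Both depended on the probe set. In the fit over every probe set, another of Sdhc differed by 0.26 ± 0.28. Another of Sdha, with a mean level of 12.2, differed by -0.82 ± 0.20, and neither was called.

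In monocytes, where 34.4% of all genes were lower, 16 of 33 other assembly factors, 16 of 23 import genes, 11 of 20 electron carriers and 9 of 15 citric acid cycle genes were lower, with 1, 1, 1 and none higher. Slc25a4, an ADP and ATP carrier, stood at a mean of 4.95 in monocytes against 12.00 elsewhere (-7.05 ± 0.47, adjusted p = 3.14e-08). Of the DNA upkeep genes 8 of 14 were lower and none higher, among them Tfam, which packs mitochondrial DNA (-3.71 ± 0.41, adjusted p = 3.49e-06), and Polrmt, the mitochondrial RNA polymerase (-4.92 ± 0.46). Of the 11 regulators 2 were lower and none higher. The summed granulocyte markers stood at 17.3 to 17.4 in the same arrays, and their part in these values was not tested.

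**Figure D4:**
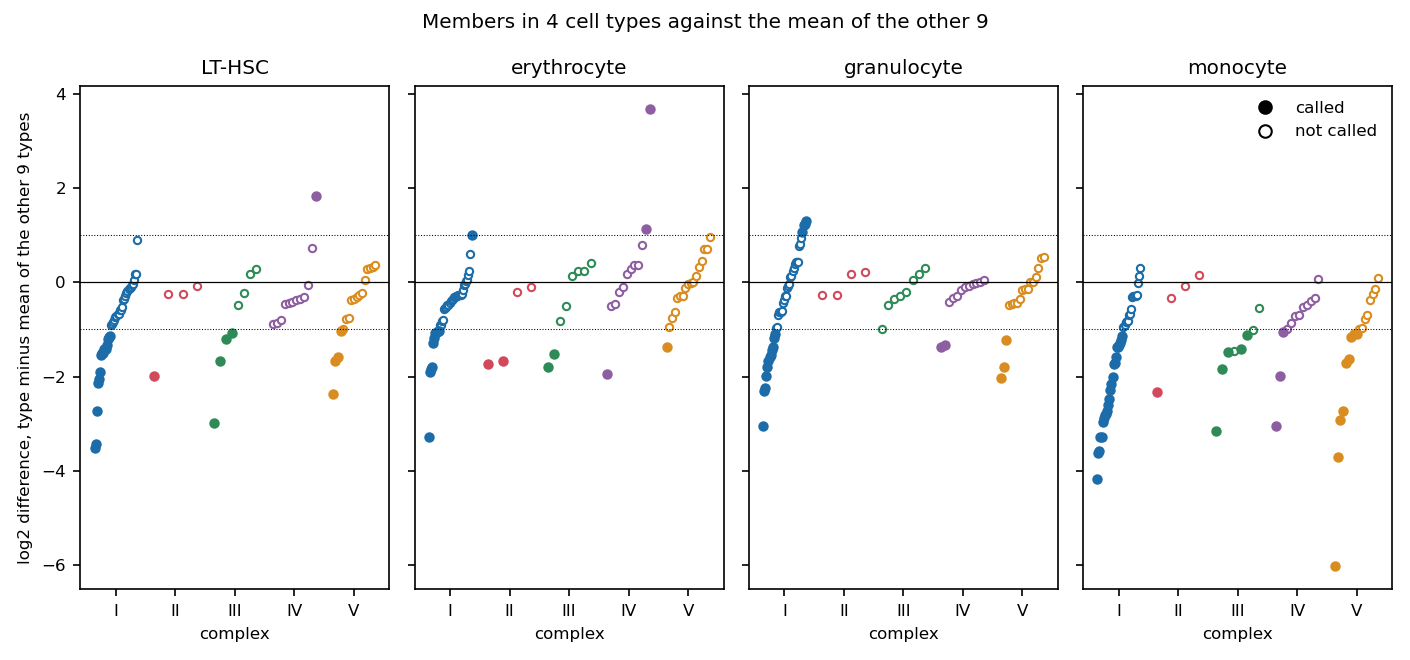
Log2 difference of the 81 tested members in LT-HSC, erythrocytes, granulocytes and monocytes, each minus the mean of the other 9 types, by complex and in rising order within each. Filled points were called, open points were not, and dotted lines mark a difference of 1 in size; 24, 16, 17 and 42 members were called lower.

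In LT-HSC 24 of 81 members (29.6%) were lower, where 21.5% of all genes were, and 1 was higher, where 18.4% were (2 without LT-HSC array 1). The median difference was -0.53, against -0.20 over all genes. Of the lower members 15 of 40 were in complex I, 1 of 4 in complex II, 4 of 8 in complex III, none of 12 in complex IV and 4 of 17 in complex V. The absence of calls in complex IV depended on the probe set. In the fit over every probe set, others of Cox7a2 (-1.53), Cox5b (-1.35) and Cox6a1 (-1.14) were called lower. Those used read -0.85, -0.80 and -0.88. The remaining probe sets of complex IV were not called lower. Ndufs5, an accessory subunit on the intermembrane side whose promoter is among those shown, stood at 4.63 and 4.69 in LT-HSC. Its arrays in all other types lay between 7.24 and 9.57, and the difference was -3.53 ± 0.22 (adjusted p = 2.38e-08). A further probe set, annotated to Ndufs5 and its pseudogene together, read 6.54 and 6.57 in LT-HSC and 8.43 to 11.05 elsewhere.

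Ndufaf7, a methyltransferase that acts on a core subunit, read 4.46 and 3.28 in LT-HSC against a mean of 7.31 in the other types (-3.44 ± 0.34, adjusted p = 2.43e-06). Ndufb7, on the same side of the membrane as Ndufs5, read 8.58 and 8.61 against 11.32 (-2.73 ± 0.29, adjusted p = 3.97e-06). Sdhb differed by -1.99 ± 0.28 (adjusted p = 5.52e-05) and Uqcrq by -2.98 ± 0.62 (adjusted p = 0.00127). Atp5k, the e subunit of ATP synthase, read 8.18 and 9.22 in LT-HSC against 11.08 (-2.38 ± 0.34, adjusted p = 6.01e-05).

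Cox7c was the member higher in LT-HSC, at 10.00 and 9.84 against a mean of 8.08 (1.84 ± 0.36, adjusted p = 8.14e-04). Ndufaf4 read 10.56 and 11.33 in LT-HSC against a mean of 10.04 elsewhere and had no call. Of the Ndufaf factors Ndufaf3, Ndufaf5, Ndufaf7 and Ndufaf8 were lower and the other 4 had no call. Outside the rule 11 of 33 assembly factors were lower in LT-HSC and none higher. Of the electron carriers 4 of 20 were lower and 4 higher, of the import genes 5 of 23 lower and 1 higher, and of the DNA upkeep genes 4 of 14 lower and 1 higher. Of the citric acid cycle genes 1 of 15 was lower and 1 higher, and of the regulators 2 of 11 were lower and 1 higher. Ppargc1a, a coactivator of mitochondrial genes, stood at a mean of 5.95 in LT-HSC against 3.68 in the other types. It passed the filter only through the LT-HSC arrays, so that a call of higher there would follow from the filter, and no test is given.

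In erythrocytes 16 of 81 members (19.8%) were lower, where 36.7% of all genes were, and 3 were higher, where 18.5% were. The median member differed by -0.29, against -0.54 over all genes. These values moved with scaling and with 1 array. With arrays centred on their median 12 members were higher and 8 lower, with a median of 0.35 against 0.09 over all genes, and without erythrocyte array 2 there were 6 higher and 9 lower. Granulocyte markers, summed, read 15.4 to 16.7 in these arrays.

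Cox6b2, the testis form of a complex IV subunit, is counted among the 3 higher in erythrocytes, but passed the filter only through the erythrocyte arrays. It read 5.60 and 5.93 there and between 2.04 and 2.12 in all 18 arrays of the other types. Cox6b1, the common form, stood at 13.72 and 13.28 in erythrocytes, within its range elsewhere (12.86 to 14.50). Ndufa4 was higher too, at 8.72 and 8.67 against a mean of 7.55 (1.14 ± 0.26, adjusted p = 0.00148), as was Ndufb9 at the limit (1.01 ± 0.24), which lost its call when any of 7 single arrays was left out (0.76 to 1.00).

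Of the assembly factors 6 of 8 were lower in erythrocytes, among them Ndufaf1 (-1.04), which stood at 0.07 without erythrocyte array 2. Ndufaf5 read 2.28 and 2.40 there, near background, against a mean of 5.63 (-3.29 ± 0.30, adjusted p = 5.20e-07). Cox7a2l read 10.47 and 9.48 against 11.91, lower than in any array of another type (-1.94 ± 0.24, adjusted p = 8.29e-06). Sdhb (-1.72 ± 0.28) and Sdhd (-1.67 ± 0.35) of complex II and Uqcrc2 (-1.81 ± 0.25), a core protein of complex III, were lower, but Sdhb was not called without erythrocyte array 2 (-0.95). In complex V 1 of 17 members was lower, Atp5g2 (-1.37 ± 0.39, adjusted p = 0.00645), which had no call without that array (-1.15).

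**Figure D5:**
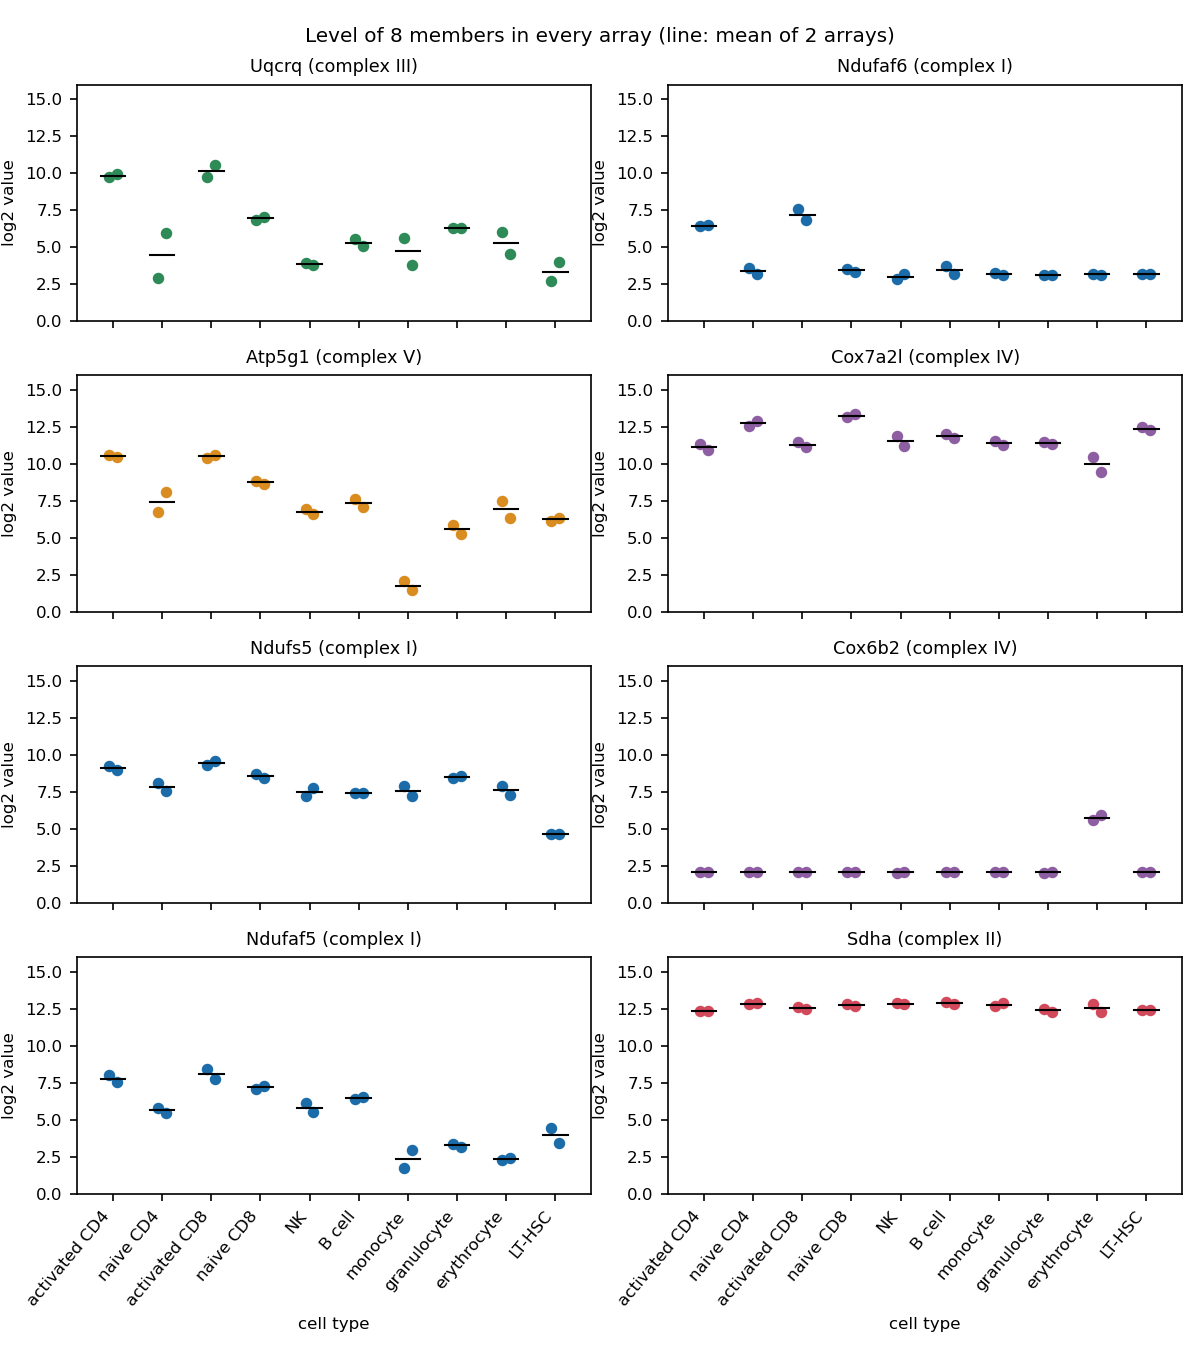
Log2 value of 8 members in every array of the 10 cell types (points) with the mean of the 2 arrays (line). Uqcrq, Ndufaf6 and Atp5g1 are highest in activated T cells, Cox7a2l is lower there than in naive T cells, Ndufs5 is lowest in LT-HSC, Cox6b2 is raised in erythrocytes, and Sdha stays between 12.29 and 13.00.

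In granulocytes 17 of 81 members (21.0%) were lower, where 26.4% of all genes were, and 4 were higher, where 21.2% were. The median member differed by -0.26, against -0.29 over all genes. The 3 erythrocyte markers, summed, read 10.0 to 11.5 in these arrays, against 15.4 in erythrocytes and 3.33 to 4.88 in the other 8 types. Alas2, the red cell enzyme of haem synthesis, was the highest of them, at 11.49 and 10.02 in granulocytes. Klf1 read 5.32 and 1.91 there, against 1.87 to 2.02 in the types other than erythrocytes. Epor read 3.83 and 2.93, against 1.82 to 1.91 in those types. What part this signal had in the values was not tested. Complex I went both ways, with 12 of 40 members lower and 4 higher, while no member of complexes II and III was called. Of the assembly factors Ndufaf4 read 7.53 and 7.24 in granulocytes against a mean of 10.43 (-3.05 ± 0.30, adjusted p = 1.55e-06), and Ndufaf1, Ndufaf2 and Ndufaf5 were lower as well. Ndufaf7 was higher, at 8.41 and 7.76 against 6.84 (1.25 ± 0.34, adjusted p = 0.0063), without a call when granulocyte array 1 was left out (0.92).

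Ndufa8, which lies on the intermembrane side of complex I, read 10.65 and 9.98 in granulocytes against a mean of 9.02 (1.30 ± 0.27, adjusted p = 8.20e-04), but had no call without granulocyte array 1 (0.96). Ndufs4, an accessory subunit of the NADH arm whose loss causes Leigh syndrome in humans, read 10.29 and 10.17 in granulocytes (1.23 ± 0.22, adjusted p = 2.58e-04). Atp5g1 and Atp5g2 were lower, with differences of -1.79 ± 0.33 and -2.04 ± 0.39. As the mean of all their probe sets these gave -0.92 and -0.88 and no call, and the count of lower members fell to 11.

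B cells and NK cells stood near the middle of the types. In B cells 2 members were higher (16.4% of all genes) and 1 lower (11.3% of all genes). Ndufs8 read 11.73 and 11.22 in B cells against a mean of 10.24 (1.23 ± 0.25, adjusted p = 0.00153), with no call without B cell array 1 (0.97). Ndufaf5 read 6.42 and 6.53 against 5.17 (1.31 ± 0.30, adjusted p = 0.00406), with no call without B cell array 2 (1.25). Uqcr10 was lower, at 6.53 and 5.70 against 7.28 (-1.17 ± 0.25), and had no call without that array either (-0.75).

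In NK cells 5 members were lower (11.6% of all genes) and 2 higher (16.1% of all genes). Among the lower ones were 3 small subunits of complex III, led by Uqcrq at 3.94 and 3.76 in NK cells against a mean of 6.25 (-2.40 ± 0.62, adjusted p = 0.0079). Ndufaf6, also counted, was near background in NK cells as in every type but the activated T cells. Without NK array 1 only 1 member was lower and none higher, and without NK array 2 there was 1 higher. With arrays centred on their median 11 members were lower and none higher in NK cells, and 6 lower and none higher in B cells.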

How the data were processed

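The 20 arrays were hybridised with amplified RNA of 10 sorted cell types, 2 arrays each. The deposited values are log2 values made with GCRMA, per the submitters' processing notes. Its version is not given in the sources used here. They ran from 0.37 to 16.85, with array medians of 3.08 to 3.27, over 45101 probe sets, of which 34945 had 1 gene symbol in the platform annotation. Counts of reads do not exist for arrays, and the number of arrays limits the precision.

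Arrays were grouped by their titles, and 1 naive CD8 array by its source name. Each gene was read by 1 probe set, the one of highest mean over the 20 arrays. Of the 90 used for members, 15 end in _s_at and 9 in _x_at, which marks probes that may bind related transcripts. Genes above a log2 value of 5 in at least 2 arrays were fitted with limma 3.58.1 in R 4.3.3 (lmFit and eBayes, 1 mean per type over all arrays), with Benjamini-Hochberg adjustment over the 9810 genes tested. All adjusted p-values are from limma and, except those of the F test over types, 2-sided. Errors are standard errors. The F test over types was called on its adjusted p and a range of at least 1. The fit was tested on simulated data. Alternatives were the mean of all probe sets, centring, quantile normalization, other filters, array weights, a mean-variance trend, a replicate block and arrays left out; the fit over every probe set (15892) and the omission of the naive arrays numbered 2 were chosen after seeing the data. The members, gene lists and comparisons were chosen with earlier results of these data known. Any member could be named. Full values were meant for up to 2 called members of largest difference per complex and direction, for the core subunits Ndufs1, Ndufv1, Sdha, Sdhb, Uqcrc1, Uqcrfs1, Cox4i1, Cox5a, Atp5a1 and Atp5b, for isoform sets and for up to 3 genes per list; further members with full values were chosen after their values were seen. Probe sets with several symbols were left out of the members.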

Additional observations from a re-analysis of the deposited data

How the results depend on the processing

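Of 222 pairs of a named member and a comparison, followed through 5502 values under the alternatives, 109 values of 57 pairs had the opposite sign, none of them with a call in either setting; 41 pairs lost a call under at least 1 alternative and 17 gained one. Among the other members Ndufaf1 in erythrocytes, called lower at -1.04, stood at 0.07 without erythrocyte array 2, and Atp5c1 in activated CD4 cells, not called at 0.36, was called lower at -1.20 as the mean of its probe sets. The count of members called lower in activated CD4 cells, 2, was 1 with centred arrays, with quantile normalization, without a filter, with the mean-variance trend, with the replicate block and with only the 2 groups compared. With arrays centred on their median, 12 members were higher and 8 lower in erythrocytes, 1 higher and 26 lower in monocytes, 0 higher and 11 lower in NK cells, and 0 higher and 6 lower in B cells; centring moved the median difference of all genes in CD4 activation to 0.22. Quantile normalization gave 10 lower in erythrocytes, 0 higher and 8 lower in NK cells and 3 lower in B cells. The mean of all probe sets gave 11 lower in granulocytes and 0 lower in B cells. With only the 2 groups compared 29 members were higher in activated CD4 cells. The cause of these shifts was not tested.

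Leaving out each array in turn gave 23 to 40 members higher and 1 to 2 lower in activated CD4 cells, and 11 to 16 higher and 1 lower in activated CD8 cells. It gave 1 to 2 higher and 20 to 27 lower in LT-HSC, 2 to 6 higher and 9 to 18 lower in erythrocytes, 3 to 5 higher and 14 to 19 lower in granulocytes, and 0 higher and 34 to 53 lower in monocytes. In NK cells it gave 0 to 2 higher and 1 to 6 lower, in B cells 1 to 2 higher and 0 to 1 lower, and 77 to 80 in the test over all types.

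Over 45 pairs of types the correlation of the deviations of arrays with the same replicate number ran from -0.26 to 0.21, with 9 pairs over 0.1. It was 0.12 between naive CD4 and naive CD8 cells, whose arrays numbered 1 carry the Y-linked signal. Nothing in the labels says that a number marks a shared batch or animal. With the replicate number as a block 40 members were higher and 1 lower in activated CD4 cells, 18 higher and 1 lower in activated CD8 cells and 15 lower in erythrocytes. With 2 arrays a type, small differences and values near background cannot be resolved. Where an array was left out its group kept 1 array, so that calls could be lost through lower precision alone.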

Other observations

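The probe set of ND5, a complex I subunit encoded in mitochondrial DNA and so outside the naming rule, was not called in either T cell activation comparison. It read 13.17 and 13.26 in activated CD4 cells against 13.54 and 13.96 in naive CD4 cells, a difference of -0.54 ± 0.30 (limma, adjusted p = 0.193). In CD8 cells it read 13.32 and 13.14 in activated cells against 13.81 and 13.82 in naive cells (-0.59 ± 0.30, adjusted p = 0.16). It was higher in LT-HSC, at 14.07 and 14.49, than in the other 9 types on average (1.13 ± 0.22, adjusted p = 8.61e-04), where 24 of 81 nuclear members were lower. In monocytes, at 11.39 and 11.74, it was lower (-1.88 ± 0.22, adjusted p = 7.08e-06). ND5 is 1 transcript, and a test of its difference from the nuclear members was not made.

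Probe sets that list several gene symbols were no members, and 10 of them carry the name of one. The probe set of Ndufs6 and Ndufs6b read 12.87 and 12.66 in activated CD4 cells against 9.95 and 11.44 in naive CD4 cells. That of Ndufa11 and Ndufa11b read 9.47 and 9.25 in activated CD4 cells against 7.24 and 7.64 in naive CD4 cells, and 4.35 and 4.32 in monocytes, below every array of another type. The brighter probe set of Ndufb4 and its copies read 12.15 and 12.03 in activated CD4 cells against 11.18 and 10.72 in naive CD4 cells, while the probe set of Ndufb4 alone stayed at 2.26 to 2.57.

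Some members have probe sets that differ in direction. In the fit over every probe set, 65 further probe sets of 43 members were tested. Of these, 58 had the sign of the probe set used in CD4 activation, 58 in CD8 activation, 56 in LT-HSC and 61 in monocytes. An Atp5c1 probe set read 6.66 and 6.98 in activated CD4 cells against 9.21 and 9.94 in naive CD4 cells (-2.75 ± 0.82, adjusted p = 0.019), where the one used differed by 0.36 and was not called. An Ndufs4 probe set was higher in LT-HSC (1.60 ± 0.47, adjusted p = 0.0114), where the one used was lower (-2.15). An Ndufab1 probe set was higher in LT-HSC (1.59 ± 0.52, adjusted p = 0.021), where the one used had no call (-0.35).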
